A study of Mus musculus with 78 samples.

Results

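The potassium channel genes were taken as all array probes whose current gene symbol starts with Kcn. These were 156 probes of 87 genes among 46643 probes on the array, of which 32794 carried a single gene symbol in the annotation used, 19406 symbols in all. The symbols of 3 noncoding genes, Kcnd3os, Kcnmb4os2 and Kcnq1ot1, also start this way, and their 4 probes were kept as a class of their own. Kcnj10 was not analysed here.

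The arrays compared 3 lines of CD-1 mice, in their generation 25 of selective breeding: HAB mice show high anxiety-related behavior, LAB mice low and NAB mice normal levels of it. All animals were males of 10 weeks, so the line was the one labelled difference between animals, and each array held the RNA of 1 region of 1 mouse. Laser microdissection gave tissue of the dentate gyrus (DG), the paraventricular nucleus of the hypothalamus (PVN), the cingulate cortex (Cg) and, in the amygdala, the basolateral (BLA) and the central (CeA) nucleus, and RNA was hybridised to Illumina bead arrays. Each line had 3 DG arrays. HAB, NAB and LAB mice gave 5, 6 and 6 Cg arrays, 6, 6 and 5 CeA arrays, 6, 5 and 5 PVN arrays and 5, 6 and 5 BLA arrays, so that there were 15 groups.

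Potassium channels let potassium ions leave or enter cells along their electrochemical gradient and so set the resting potential and end action potentials. Voltage-gated members open on depolarisation, inward rectifiers and two-pore channels carry current near rest, and calcium- or sodium-activated members open when those ions rise inside the cell. Accessory subunits change the gating or the transport of the pore-forming subunits, and astrocytes use inward rectifiers to take up potassium released by active neurons.

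The values were 75 arrays of normalised fluorescence intensity. Median intensities lay between 5.49 and 6.19, and the background of an array, set at the 95th percentile of 1303 odorant and pheromone receptor probes, between 6.99 and 10.6. The share of probes above background was 29.9% to 42.9% per array, and log2 intensities of arrays in 1 group correlated with a median r of 0.966 over probes (0.945 to 0.981). The regions were checked against markers. Each listed gene outside the Kcn family was read, here and below, from the 1 probe that was brightest on average, so its other probes are not shown. The summed intensity of the PVN list (Oxt, Avp and Sim1, where measured) was at least 1696 on each PVN array and at most 69.9 elsewhere, and that of the granule cell list (Prox1, Dsp and C1ql2, where measured) was at least 508 on each DG array and at most 244 elsewhere. Some arrays stood apart in other marker sums. The PVN array of HAB mouse 9 had an oligodendrocyte sum of 2494 (next highest 1228) and a choroid plexus and ependyma sum of 316 (next 53.3), and the DG array of NAB mouse 4 had a choroid plexus and ependyma sum of 415 (next 48.9). The PVN array of HAB mouse 20 had a thalamus sum of 332 (next 208), and its CeA array had a cortex and BLA sum of 167 (next 105). The CeA sums of that list averaged 77.6 in HAB (32.3 to 167), 43.8 in NAB (15.5 to 72.1) and 26.3 in LAB mice (10.5 to 51.7). Their part in the CeA line comparisons was not tested. On the cortex and BLA list the PVN arrays of NAB mouse 4 (64.7) and HAB mouse 9 (55.1) were far above the PVN median of 8.29. All arrays of a region formed 1 hybridisation batch, so region and batch cannot be told apart, whereas a comparison of lines lies within a batch. By the paper's methods a slide held fewer samples than any region had arrays, so a comparison of lines can span slides. Which arrays shared a slide was not examined, and the part of the slide in the line differences was not tested.

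Testing in a region required a probe to exceed background on no fewer arrays than the smallest of its 3 line groups held. Of the 156 Kcn probes, 86 probes of 62 genes passed in at least 1 region and 56 passed in all 5, and 48 exceeded background on no array. The DG had 75 tested Kcn probes, the Cg 74, the BLA 71, the CeA 66 and the PVN 62. By class, 17 of 26 probes of pore-forming Kv subunits, 6 of 11 of Kv modifier subunits, 11 of 14 of the EAG, ERG and ELK family, 2 of 8 of the KCNQ family, 9 of 13 of calcium- or sodium-activated channels, 14 of 27 of inward rectifiers, 11 of 26 of two-pore channels, 14 of 27 of accessory subunits and 2 of 4 noncoding probes were tested in at least 1 region. Classes followed the gene symbol, so Kcnu1 (Slo3) was counted among the calcium- or sodium-activated channels whatever opens it. The 25 genes without a tested probe included Kcnq5, Kcnn3, Kcnj2, Kcnk9 and Kcne2.

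Few Kcn probes differed between the lines within a region. At an adjusted p of 0.05 (limma, Benjamini-Hochberg over all probes tested in the region), HAB and LAB mice differed at 3 of 71 Kcn probes in the BLA (2.25% of all probes tested there), at 2 of 74 in the Cg (2.47%), 2 of 66 in the CeA (2.22%) and 2 of 62 in the PVN (2.09%), and at 0 of 75 in the DG (0.761%). NAB and LAB mice differed at 5 Kcn probes in the BLA (3.39% of all), 4 in the CeA (2.63%), 3 in the Cg (2.51%), 2 in the PVN (1.69%) and 0 in the DG (0.627%). HAB and NAB mice differed at 1 Kcn probe in the Cg (2.13% of all), 2 in the BLA (3.05%) and 0 in the CeA (2.06%), the PVN (1.71%) and the DG (0.659%). Where limma called no Kcn probe, the unadjusted p was under 0.05 at 9 of 66 (CeA) and 4 of 62 (PVN) for HAB against NAB. In the DG this held in limma at 7 of 75 between HAB and LAB, 3 between HAB and NAB and 4 between NAB and LAB. The shares of all probes with such a p were not counted, so nothing is read from these numbers. The share of Kcn probes called thus ran from 0% to 7.04% and rested on at most 5 probes. With array weights the BLA count for NAB against LAB became 14, where 17.2% of all probes were called.

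Averaged over the 5 regions, 9 of 86 Kcn probes differed between HAB and LAB mice (7.17% of all probes), 6 higher (2.67% of all) and 3 lower in HAB (4.5%). HAB and NAB mice differed at 6 Kcn probes (6.25% of all), 3 higher in HAB (3.28%) and 3 lower (2.97%), and NAB and LAB mice at 10 (11.9% of all), 5 higher in NAB (2.87%) and 5 lower (9.01%). The median log2 difference of the Kcn probes was 0.02, 0.03 and 0.01 in these comparisons, against -0.04, 0.00 and -0.03 for all probes. The 3 comparisons share their groups of animals. The line difference itself depended on the region at 1 Kcn probe for HAB against LAB (0.258% of all probes) and at 1 for NAB against LAB (0.331%). Both calls were of the same Kcnj16 probe. For HAB against NAB region dependence was called at 0 Kcn probes (0.235%). There 5 of 86 had an unadjusted p under 0.05 in limma, and the share of all probes with such a p was not counted.

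**Figure D1:**
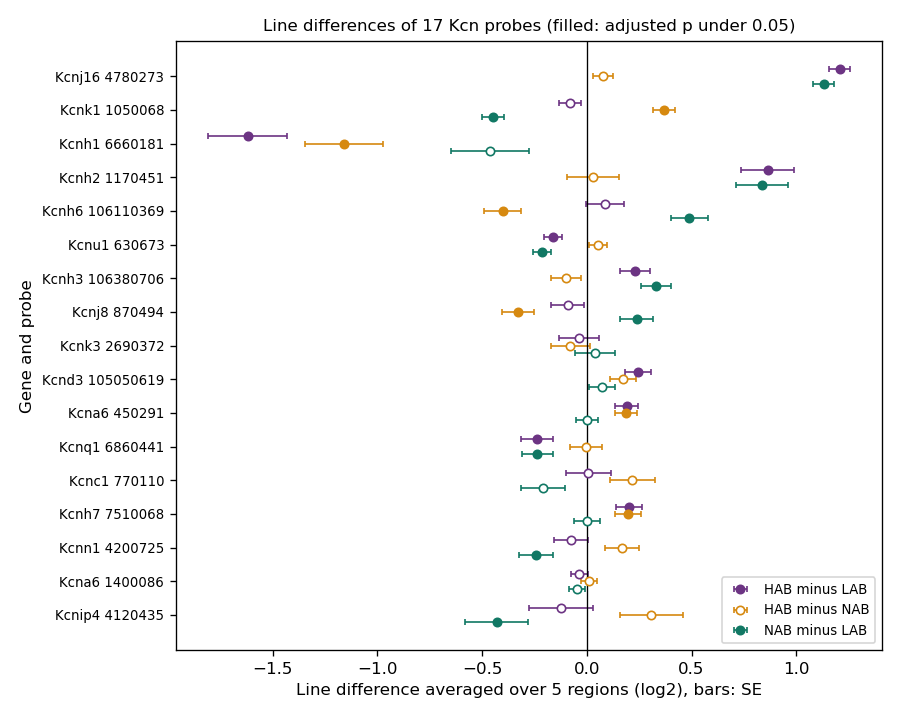
Log2 difference between lines, averaged over the 5 regions (x axis), for the 17 Kcn probes named for a line difference (y axis), with the standard error from limma as bars and points filled where the adjusted p was under 0.05. Kcnj16 stands furthest to the side of higher HAB and NAB levels and Kcnh1 furthest to the side of lower HAB levels.

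Among inward rectifiers, Kcnj16 set the LAB line apart from both other lines in every region. Kcnj16 encodes Kir5.1, which forms channels with Kir4.1 in astrocytes and in the kidney. In the BLA its probe had intensities of 67.4, 57.5, 64.0, 68.6 and 62.3 in HAB mice and of 11.8, 16.1, 12.7, 16.6 and 18.3 in LAB mice. The 6 NAB arrays there ran from 51.5 over a median of 64.7 to 70.2. All LAB arrays thus lay below all HAB and NAB arrays, whereas HAB and NAB overlapped.

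In the Cg, Kcnj16 reached 44.5, 42.6, 50.05, 47.9 and 51.4 in HAB mice, 43.8 to 48.3 (median 45.4) in NAB and 20.2 to 26.2 (median 22.1) in LAB mice. The CeA arrays held 59.5 to 78.2 (median 67.4) in HAB, 52.8 to 65.3 (median 58.8) in NAB, and 21.4, 23.1, 30.5, 31.5 and 27.2 in LAB mice. In both regions the lowest HAB and NAB arrays were well above the highest LAB array. The PVN had the highest LAB values, 52.3, 62.4, 59.0, 60.5 and 63.0, against 80.5, 82.2, 90.7, 95.0 and 109 in NAB and 85.0 to 102 (median 93.1) in HAB mice. In the DG the values were 29.8, 22.3 and 28.8 in HAB, 24.8, 23.9 and 27.9 in NAB, and 16.3, 12.4 and 16.2 in LAB mice. LAB arrays overlapped those of no other line in any of the 5 regions, a pattern found at 2.73% (Cg), 2.8% (CeA), 2.85% (PVN), 3.63% (BLA) and 14.8% (DG) of all probes tested for HAB against LAB and at 1.97%, 3.58%, 4.04%, 3.9% and 11.6% for NAB against LAB.

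**Figure D2:**
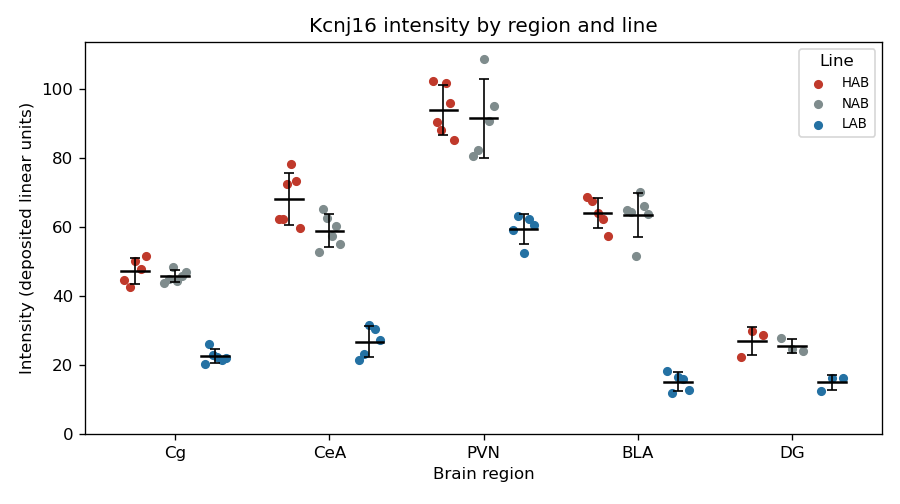
Kcnj16 intensity (y axis, linear) on every array by region (x axis) and line (colour), with black lines for the mean and SD of each group. LAB arrays lie below all HAB and NAB arrays in each region, and as a ratio the gap is widest in the BLA (15.1 against 64.0 and 63.5) and narrowest in the PVN (59.5 against 93.9 and 91.4), whereas in intensity units it is narrowest in the DG.

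The log2 difference of Kcnj16 between HAB and LAB mice was widest in the BLA, at 2.10 ± 0.12 (SE), followed by the CeA (1.36 ± 0.11), the Cg (1.07 ± 0.08) and the PVN (0.66 ± 0.10), with limma adjusted p of 4.88e-09, 3.48e-07, 1.61e-08 and 4.38e-04. In the DG, with 3 arrays a line, it was 0.85 ± 0.16 and did not pass (limma adjusted p = 0.0731). NAB minus LAB gave 2.08, 1.15, 1.02 and 0.61 in the same order, all past the threshold, and 0.78 in the DG (limma adjusted p = 0.126). Between HAB and NAB mice the probe differed by at most 0.21, with limma adjusted p of at least 0.511. Averaged over regions, Kcnj16 was 2.31-fold higher in HAB than in LAB mice (log2 1.21 ± 0.05, limma adjusted p = 2.05e-31) and 2.19-fold higher in NAB than in LAB mice (log2 1.13 ± 0.05, limma adjusted p = 5.83e-30). The labels carry 6 HAB, 7 NAB and 8 LAB mouse numbers, more for NAB and LAB than the animals that the methods give, so every count and test over mice rests on the numbers in the labels. Deviations from the region means were also averaged for each mouse, over its 1 to 5 arrays. The lines again did not overlap for HAB against LAB (log2 1.20, 6 and 8 mice) or NAB against LAB (log2 1.13, 7 and 8 mice). Two-sided exact permutation p was 0.000333 and 0.000155, the smallest these numbers of mice allow. Both are unadjusted and belong to a probe that was chosen with its values known.

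The size of the Kcnj16 difference changed with the region (moderated F of 29.4, limma adjusted p = 7.08e-10 for HAB against LAB, and F of 31.7, adjusted p = 3.13e-10 for NAB against LAB). Set against the Cg, the HAB minus LAB difference was larger in the BLA by 1.03 ± 0.14 (limma adjusted p = 1.59e-05). The CeA (0.28 ± 0.14), PVN (-0.41 ± 0.14) and DG (-0.22 ± 0.17) did not differ from the Cg past the threshold. With a separate variance for each region, the dependence remained (F of 21.9, limma adjusted p = 3.75e-05, and F of 23.2, adjusted p = 1.89e-05). On the linear scale the mean LAB intensity was 23.6% of the HAB mean in the BLA, 39.3% in the CeA, 47.6% in the Cg, 55.4% in the DG and 63.3% in the PVN.

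Regional order of Kcnj16 also differed by line, since the BLA mean exceeded the Cg mean in HAB (64.0 ± 4.42 against 47.3 ± 3.71, SD, n = 5 and 5) and NAB mice (63.5 ± 6.32 against 45.7 ± 1.69, n = 6 and 6) but lay below it in LAB mice (15.1 ± 2.74 against 22.5 ± 2.02, n = 5 and 6). Over all lines the probe was highest in the PVN (1.20 above the other 4 regions on the log2 scale) and lowest in the DG (-1.16).

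Markers of astrocytes were set beside Kcnj16. Of 8 listed markers 7 were measured. Between HAB and LAB mice only Slc1a2, a glutamate transporter, passed within a region (higher in HAB in the Cg, CeA, PVN and BLA). Between NAB and LAB mice Slc1a2 (1.44) and S100b, a calcium-binding protein (1.06), were higher in NAB in the BLA, and on average over regions Slc1a2 was higher (0.80) and Aldh1l1 (-0.24) and Slc1a3 (-0.12) were lower in NAB. In the BLA the summed astrocyte intensity was 1079 to 1283 in HAB, 921 to 1208 in NAB and 842 to 1011 in LAB mice, and in the PVN 1177 to 1627, 1236 to 1579 and 1366 to 1615. In the same order of lines it was 1060 to 1334, 887 to 1181 and 1050 to 1368 in the CeA. The Cg held 976 to 1285, 735 to 1118 and 835 to 1098, and the DG 1253 to 1356, 1355 to 1405 and 1060 to 1320. The BLA median of the marker differences was 0.08 for HAB minus LAB and -0.05 for NAB minus LAB on the log2 scale. In the CeA these medians were -0.07 and -0.19. The summed endothelial and pericyte intensity was higher in LAB mice (308 to 353 in the BLA, against 214 to 293 in HAB and 216 to 291 in NAB), with 1 of 5 measured genes, Slco1c1, past the test in each region. The part of either list in the Kcnj16 difference was not tested. In tissue samples fewer cells of a type and less RNA per cell cannot be told apart. Sequence differences between the lines under a probe can also change its signal, as the paper proposes for Stx3. Whether any Kcn probe covers such a difference was not tested, so line differences here are differences of probe signal.

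The other inward rectifiers differed little between lines. Kcnj8 (Kir6.1, the pore of vascular ATP-sensitive channels) was lower in HAB than in NAB mice on average over regions, by at least 1.05-fold with each HAB array below background counted at it (limma adjusted p = 0.0022), and higher in NAB than in LAB mice by at least 1.1-fold counted in the same way (adjusted p = 0.0334, lost on leaving out any of 8 of 21 mice). Its intensities lay close to background, from 4.42 to 15.1 over all arrays. No inward rectifier probe besides that of Kcnj16 passed within a region, in comparisons where 0.627% to 3.39% of all probes passed.

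In the EAG, ERG and ELK family 4 of 11 tested probes passed the average test between HAB and LAB mice, 3 higher and 1 lower in HAB, where 2.67% of all probes were higher and 4.5% lower. Of these calls that of a Kcnh3 probe (limma adjusted p = 0.0357) was lost on leaving out any of 8 of 21 mice. Its size was not measured once LAB arrays below background were counted at it. The Kcnh7 call was lost on leaving out any of 6 of 21 mice, and the Kcnh1 and Kcnh2 p-values are too small, as given below. Kcnh1 encodes Kv10.1 (EAG1), a voltage-gated channel of neurons. In HAB mice its probe had Cg intensities of 22.8, 15.4, 26.8, 19.3 and 96.8 in mice 1, 5, 9, 11 and 17. The 6 NAB arrays ran from 72.5 over a median of 91.1 to 111 and the LAB arrays from 104 over a median of 125 to 157. The other 4 HAB mice were thus far below all others, whereas mouse 17 lay inside the NAB range and below the LAB range.

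The same mouse was high at Kcnh1 in the other regions. In the BLA the HAB values were 44.7, 23.2, 29.9 and 28.8 in mice 1, 5, 9 and 11 and 68.4 in mouse 17, against 61.2 to 88.7 (median 71.1) in NAB mice and 82.5, 68.3, 70.9, 78.1 and 81.9 in LAB mice. The DG values were 6.54, 19.6 and 89.8 in HAB mice 1, 11 and 17, 53.9, 30.8 and 85.7 in NAB mice, and 67.9, 83.9 and 82.3 in LAB mice. In the CeA the HAB arrays ran from 11.4 over a median of 13.9 to 72.7 in mouse 17, with mouse 20 at 43.2 next to it, and in the PVN from 29.9 over 45.1 to 130 in mouse 17, with mouse 20 at 104. Mice 17 and 20 therefore reached the NAB levels on each of their arrays, although mouse 17 in the Cg and mouse 20 in the CeA and PVN lay below all LAB arrays, and mice 1, 5, 9 and 11 stayed below all NAB and LAB arrays of each region.

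**Figure D3:**
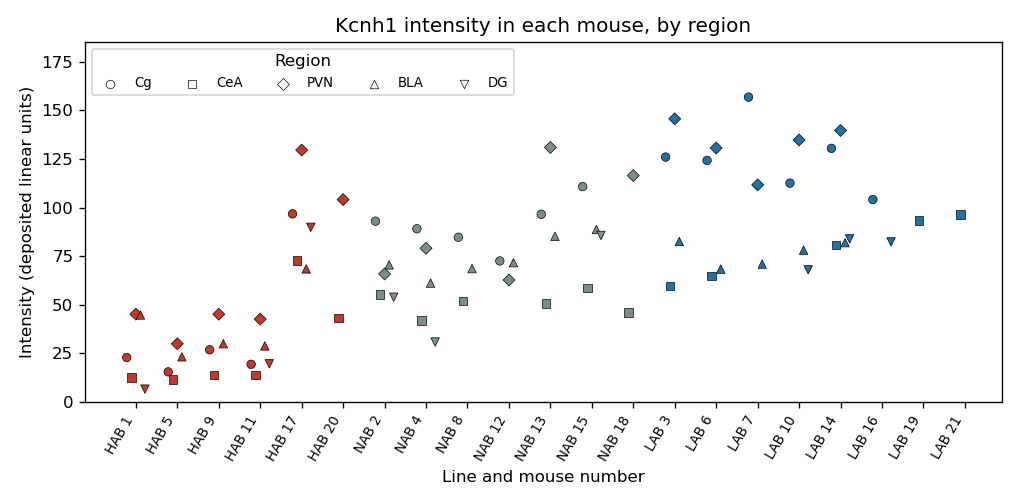
Kcnh1 intensity (y axis, linear) on every array, by mouse (x axis), with the region as the symbol and the line as the colour. The arrays of HAB mice 17 and 20 lie between 43.2 and 130, within or above the range of the NAB arrays of their regions, and those of HAB mice 1, 5, 9 and 11 lie between 6.54 and 45.1.

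The arrays of 1 mouse thus moved together at Kcnh1. The within-mouse correlation of the probe's deviations from the group means was 0.716, the highest of the 86 tested Kcn probes, whose median was 0.03. Next to it came Kcng2 (0.549), Kcnh2 (0.474) and a Kcnj9 probe (0.46). Mean deviations of the HAB mice from their regions' levels were -1.50, -1.74, -1.23 and -1.35 for mice 1, 5, 9 and 11, and 0.61 and 0.17 for mice 17 and 20.

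Averaged over regions, Kcnh1 was lower in HAB than in LAB mice (log2 difference -1.62 ± 0.19, limma adjusted p = 2.47e-10) and lower than in NAB mice (-1.16 ± 0.19, adjusted p = 2.36e-06). NAB minus LAB was -0.46 (limma adjusted p = 0.0999). The fit used 1 within-mouse correlation for all probes, 0.0141, so at Kcnh1, where it was 0.716, these errors and p-values treat the arrays of a mouse as nearly independent and are too small. Within regions HAB minus LAB passed in the Cg, the CeA (-1.88, limma adjusted p = 0.00845) and the BLA (-1.08, adjusted p = 0.00705), and HAB minus NAB in the Cg (-1.68, adjusted p = 0.0028) and the BLA (-1.03, adjusted p = 0.00696). HAB minus LAB was -1.21 in the PVN and -1.78 in the DG and did not pass there (limma adjusted p = 0.0616 and 0.627). Over mouse means the difference was -1.61 for HAB against LAB, -1.09 for HAB against NAB and -0.53 for NAB against LAB, with two-sided exact permutation p of 0.00133, 0.0256 and 0.00124, unadjusted among 9 such comparisons of probes that were chosen with their values known. The region dependence of HAB minus LAB at Kcnh1 did not pass (F of 1.39). The second Kcnh1 probe lay near background, with an average difference between HAB and LAB of 0.10 (limma adjusted p = 0.605). The marker sums of the CeA and PVN arrays of HAB mouse 20 stood apart as given above, and their part in its Kcnh1 values was not tested.

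Kcnh2 encodes Kv11.1 (ERG1), a channel that also repolarises the heart. In the PVN its probe had intensities of 21.1, 42.3, 17.8, 20.2 and 21.2 in LAB mice 3, 6, 7, 10 and 14, against 40.9, 38.6, 29.7, 44.4 and 38.3 in NAB mice and 30.9 to 52.8 (median 45.0) in HAB mice. Mouse 6 was the only LAB mouse within the range of the other lines, and it was also the highest LAB array in the Cg (20.5), the CeA (20.9) and the BLA (17.5). Without this mouse the LAB values were 7.21, 11.6, 8.61 and 11.5 for the BLA, 5.14, 8.35, 9.39 and 13.2 for the CeA and 3.78 to 15.7 for the Cg. The LAB arrays of the DG held 3.27, 4.67 and 6.02, and none exceeded background. HAB arrays ran from 7.03 to 9.90 (DG), 14.2 to 21.5 (BLA), 14.7 to 21.5 (Cg) and 18.0 to 28.0 (CeA).

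The average Kcnh2 difference over regions was 0.86 ± 0.13 for HAB minus LAB (limma adjusted p = 1.61e-07) and 0.84 ± 0.12 for NAB minus LAB (adjusted p = 3.53e-07). The within-mouse correlation of this probe (0.474) was also far above that of the fit, so these errors and p-values are too small. Counting each LAB array below background at it, the HAB level was at least 1.51-fold and the NAB level at least 1.49-fold that of LAB mice. Within regions only HAB minus LAB in the PVN (0.87, limma adjusted p = 0.0176) and NAB minus LAB in the BLA (0.87, adjusted p = 0.012) passed, and the PVN call was lost without LAB mouse 3, 7, 10 or 14 (adjusted p of 0.0604 to 0.0698). Over mouse means the two-sided exact permutation p was 0.004 for HAB against LAB and 0.00482 for NAB against LAB. Both are unadjusted and belong to a probe that was chosen with its values known. LAB mouse 6 (0.34) lay among the HAB and NAB mice and LAB mouse 16 (-0.05) was level with the lowest NAB mouse (-0.06). The second Kcnh2 probe, near background, differed by -0.04.

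Kcnh6, Kcnh3 and Kcnh7 of this family changed less. Kcnh6 (ERG2) was higher in NAB mice on average, by 0.49 ± 0.09 over LAB (limma adjusted p = 2.89e-05) and also over HAB (HAB minus NAB -0.40 ± 0.09, adjusted p = 7.82e-04). In the CeA the probe held 13.7 to 26.5 (median 19.5) in NAB mice and 10.2, 11.7, 13.4, 13.5 and 11.8 in LAB mice without overlap, as at 3.58% of all probes (0.66, limma adjusted p = 0.0428, lost on leaving out any of 13 of 17 mice). A Kcnh3 probe (ELK2) was lower in LAB mice. In the BLA it held 20.0, 21.0, 19.0, 20.0 and 22.4 in HAB, 19.7 to 23.8 (median 22.1) in NAB and 16.2, 15.4, 16.2, 14.2 and 17.6 in LAB mice. LAB arrays again lay below all others. In either direction, groups did not overlap at 3.63% of all BLA probes for HAB against LAB and at 3.9% for NAB against LAB. The differences were 0.37 from HAB (limma adjusted p = 0.0208) and 0.46 from NAB (adjusted p = 0.00234). The first of these was lost without HAB mouse 5 or 17 or LAB mouse 6 or 10 (limma adjusted p up to 0.0718). The second Kcnh3 probe was not called in any line comparison. A Kcnh7 probe (ERG3), above background on 15 of 24 LAB and 15 of 26 NAB arrays, was higher in HAB than in LAB and NAB mice on average by at least 1.1-fold in each case (limma adjusted p = 0.0344 and 0.0368, lost on leaving out any of 6 and 7 of 21 mice).

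Among two-pore channels, Kcnk1 (TWIK1) was lowest in the NAB line. The BLA values were 64.4, 67.1, 68.5, 69.3 and 72.8 in HAB and 70.5, 71.1, 64.7, 72.6 and 75.9 in LAB mice, against 40.7 to 59.1 (median 51.4) in NAB mice. In the PVN the NAB arrays held 50.6, 50.6, 48.1, 51.5 and 46.6, the LAB arrays 68.9, 68.4, 75.7, 64.9 and 63.6, and the HAB arrays 55.3 to 74.2 (median 61.7). NAB arrays lay below both other lines in these regions without overlap. In either direction, HAB and NAB groups did not overlap at 3.04% (BLA) and 1.97% (PVN) of all probes tested, and NAB and LAB groups at 3.9% and 4.04%. The average difference over regions was -0.45 ± 0.05 for NAB minus LAB (limma adjusted p = 1.91e-10) and 0.37 ± 0.05 for HAB minus NAB (adjusted p = 5.72e-08), with the same sign in all 5 regions. NAB minus LAB passed in the CeA (-0.65) and the BLA (-0.49), in the PVN (-0.46, lost without LAB mouse 3 or 7 or NAB mouse 18, limma adjusted p up to 0.068, and with quantile normalisation, adjusted p = 0.26) and in the Cg (-0.40, adjusted p = 0.0478, lost on leaving out any of 13 of 17 mice). HAB minus NAB passed in the BLA (0.44, limma adjusted p = 0.00983).

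The mean summed intensity of GABAergic markers was also lowest in NAB mice in all regions but the DG. Of 3 listed markers Slc32a1, the vesicular GABA transporter, passed as lower in NAB than in HAB and LAB mice in the Cg, CeA, PVN and BLA. In the DG it passed as lower in NAB than in LAB mice (-0.74, limma adjusted p = 0.0388) but not than in HAB mice. The summed intensity averaged 585 in NAB, 719 in HAB and 732 in LAB mice in the BLA (455 to 664, 610 to 790 and 623 to 842) and 513, 724 and 737 in the PVN. Gad1 and Gad2 were not called, and the part of these markers in the Kcnk1 difference was not tested.

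**Figure D4:**
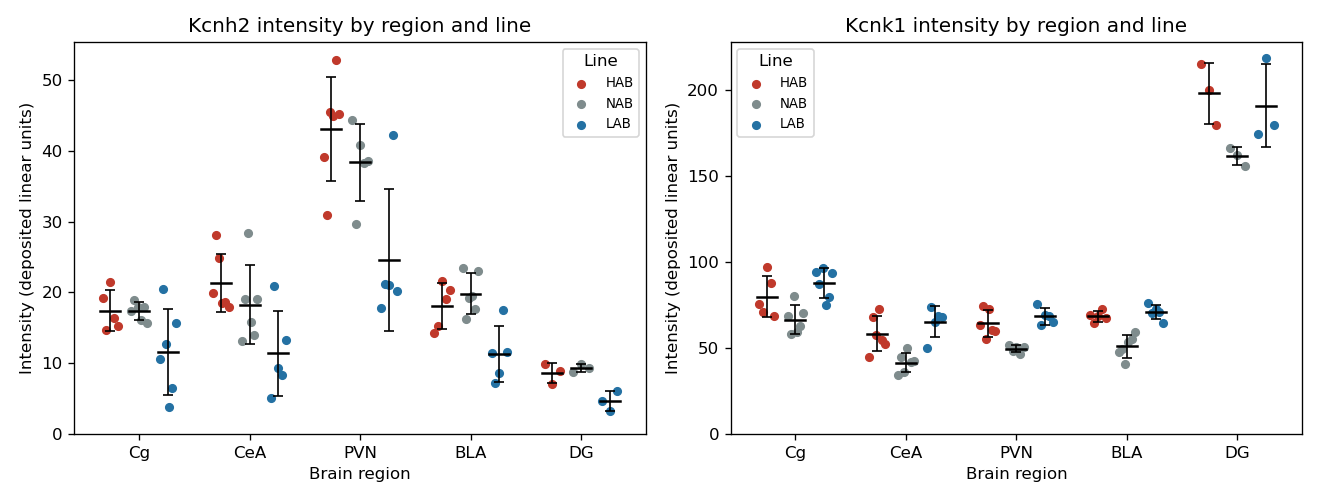
Kcnh2 (left) and Kcnk1 (right) intensity (y axes, linear) on every array by region (x axes) and line (colour), with black lines for the mean and SD of each group. For Kcnh2 most LAB arrays lie low while LAB mouse 6 reaches the other lines, and for Kcnk1 the NAB arrays lie below the HAB and LAB arrays in the PVN and BLA.

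Kcnk3 (TASK1), an acid-sensitive two-pore channel, differed between NAB and LAB mice in the BLA. NAB arrays held 25.0 to 31.4 (median 27.9) and LAB arrays 19.3, 19.2, 17.1, 18.6 and 21.1, without overlap, as at 3.9% of all probes (0.56, limma adjusted p = 0.00459, and 0.0549 with quantile normalisation). HAB arrays ran from 17.9 to 26.5 across both. Of 11 tested two-pore probes 0 differed between HAB and LAB mice on average, where 7.17% of all probes did, so this count says nothing particular about the class.

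Kv subunits showed small differences. Kcnd3 (Kv4.3, an A-type channel) was higher in HAB than in LAB mice on average by 0.24 ± 0.06 (limma adjusted p = 0.00571), with the same sign in all 5 regions. One Kcna6 probe (Kv1.6) was higher in HAB mice by 0.19 against LAB (limma adjusted p = 0.0149, lost without HAB mouse 1 or LAB mouse 16) and 0.19 against NAB (adjusted p = 0.0152, lost without HAB mouse 1), while the other 3 Kcna6 probes gave 0.11, -0.04 and -0.03 for HAB minus LAB and were not called. One of these was lower in NAB (196 to 228, median 208) than in LAB mice (260.5, 275, 246, 243 and 291) in the CeA (-0.32, limma adjusted p = 0.0414, lost on leaving out any of 11 of 17 mice). A Kcnc1 probe (Kv3.1) exceeded background in the Cg on 5 of 6 LAB, 1 of 6 NAB and 0 of 5 HAB arrays, with 8.81 to 9.98 in LAB and 4.84 to 8.81 in NAB mice. It entered the test through the LAB line, so its call between NAB and LAB there (limma adjusted p = 0.0308) carries no measured size, and the second Kcnc1 probe was not called. Of 6 tested Kv modifier probes 0 passed a line comparison. On average over regions 7.17%, 6.25% and 11.9% of all probes passed, so this count says nothing particular about the class.

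The probes of 4 more genes passed an average comparison. Kcnu1 (Slo3, known from sperm) was lower in HAB and NAB than in LAB mice (-0.16 and -0.21, limma adjusted p = 0.0114 and 2.65e-04), the first lost without HAB mouse 11 or LAB mouse 6 (adjusted p up to 0.0588) and with quantile normalisation (adjusted p = 0.302). Kcnq1 (Kv7.1) was lower in both comparisons, by at least 1.07-fold and 1.11-fold with HAB or NAB arrays below background counted at it (limma adjusted p = 0.04 and 0.0285, lost on leaving out any of 7 and 6 of 21 mice and with quantile normalisation). Kcnn1, the small-conductance calcium-activated channel SK1, was lower in NAB than in LAB mice (-0.24, limma adjusted p = 0.0352, lost on leaving out any of 9 of 21 mice and with quantile normalisation). In the PVN its arrays held 15.3, 13.3, 6.42, 12.2 and 6.78 in NAB and 16.7, 21.0, 17.2, 17.9 and 18.3 in LAB mice. These groups did not overlap, as at 4.04% of all probes, yet neither that difference (-0.84, limma adjusted p = 0.0979) nor its dependence on region (adjusted p = 0.138) passed. Kcnip4, an accessory subunit of Kv4 channels, was called lower in NAB than in LAB mice (limma adjusted p = 0.0493, and 0.0652 with a separate variance for each region), but its probe exceeded background on 11 of 75 arrays and passed the filter in the Cg alone, so the size of the average was not measured.

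Genes that work beside potassium channels were examined for comparison. Of 12 listed partner genes 11 were tested, and Cntn2, an adhesion protein that clusters Kv1 channels on axons, was lower on average in HAB (-1.13, limma adjusted p = 1.08e-16) and in NAB (-1.10, adjusted p = 3.00e-16) than in LAB mice, as was Dpp6, a Kv4 partner (-0.14 and -0.19, adjusted p = 0.00476 and 6.51e-05). These 2 genes of 11 compare with 7.17% and 11.9% of all probes called in these comparisons. Cntnap2 was lower in HAB than in NAB mice. Of 4 cyclic nucleotide-gated HCN genes 3 were measured and 2 tested, and only Hcn3 passed. It gave -0.24 for NAB minus LAB on average (11.9% of all probes called) and -0.45 for HAB minus NAB within the BLA (3.05%). Of the 6 tested sodium pump and potassium cotransporter genes 0 passed in an average comparison, where 7.17%, 6.25% and 11.9% of all probes were called, so this count says nothing particular about them.

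Differences between regions were much larger and more numerous than those between lines. Of 86 Kcn probes, 61 differed between the Cg and the mean of the other 4 regions (65.8% of all probes), 57 for the CeA (58.9%), 66 for the PVN (61.7%), 55 for the BLA (56.3%) and 61 for the DG (70.8%). In the Cg 43 Kcn probes were higher and 18 lower, against 22.5% higher and 43.3% lower among all probes, and in the PVN 21 were higher and 45 lower, against 32% and 29.7%. The CeA had 19 higher and 38 lower (19.3% and 39.7% of all), the BLA 37 and 18 (29.8% and 26.5%), and the DG 29 and 32 (41.1% and 29.7%). With quantile normalisation the Cg split became 52 and 11 (31.1% higher and 33.3% lower among all probes) and the DG split 27 and 37 (32.5% and 36.9%). Median Kcn differences were 0.15 (Cg), 0.10 (BLA), -0.03 (DG), -0.15 (CeA) and -0.21 (PVN), and those of all probes were -0.09, 0.01, 0.06, -0.09 and -0.01 in this order.

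**Figure D5:**
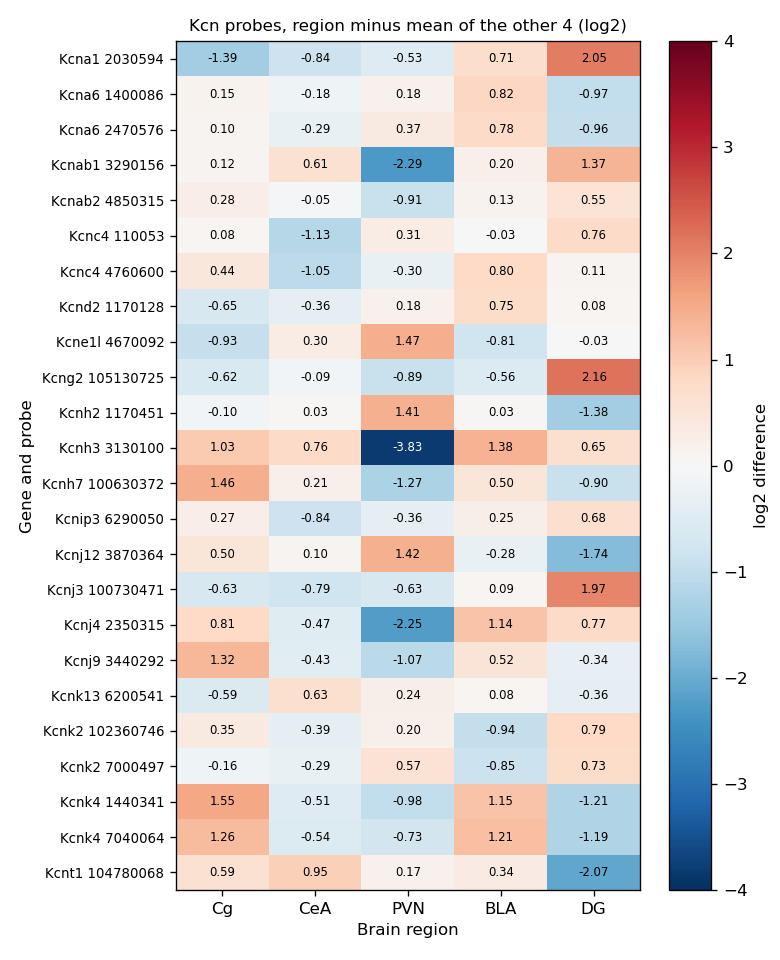
Log2 difference of each region (x axis) from the mean of the other 4, as colour and number, for 24 Kcn probes (y axis) that were furthest above or below in a region or among the brightest. Kcnh3 in the PVN is the lowest and Kcng2 in the DG the highest (2.16), and numbers for regions at background, such as Kcnh3 and Kcnj4 in the PVN, are fitted values without a measured size.

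The PVN was low in several channels. A Kcnh3 probe exceeded background on 3 of 16 PVN arrays and had means of 73.0 to 109 in the other regions. Counting the other PVN arrays at background, the PVN was at least 9.81-fold below the mean of the other regions. Kcnj4 (Kir2.3) exceeded background on no PVN array and was at least 2.44-fold lower there than the mean of the other 4 regions, with means of 29.0 (BLA), 26.8 (DG), 24.4 (Cg) and 12.5 (CeA). Kcnab1, a beta subunit of Kv1 channels, had a mean of 18.4 ± 7.92 in the PVN and 130 ± 17.3 in the DG (n = 16 and 9). Kcnf1, a Kv modifier, had 27.4 in the PVN and 82.7 in the Cg, and the 3 probes of the BK channel Kcnma1 that passed the filter there were lower in the PVN. Higher in the PVN were Kcnj12 (Kir2.2, 60.2 ± 15.5, at least 2.65-fold), Kcne1l (42.4 ± 5.59, at least 2.73-fold), Kcnh2 (35.8 ± 10.9, at least 2.44-fold) and Kcnk3 (33.0 ± 5.53, at least 2.32-fold), with arrays of the other regions below background counted at it.

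The DG stood out by Kcng2 (Kv6.2), with a mean of 50.0 ± 9.73 (n = 9) against 9.47 to 14.3 elsewhere, by Kcna1 (Kv1.1, 47.3 ± 16.5, at least 3.48-fold above the mean of the other regions, where 34 of 66 arrays exceeded background) and by Kcnk1 (log2 1.54). A Kcnj3 probe (Kir3.1) exceeded background on all 9 DG arrays (mean 14.5) and on none of the Cg, CeA or PVN. Lowest in the DG was Kcnt1 (Slack, a sodium-activated channel), with 11.4 ± 1.73 against means of 39.2 to 60.4 (-2.07), followed by Kcnj12 (10.3, at least 3.17-fold lower).

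Cortex and BLA shared the two-pore channel Kcnk4 (TRAAK). One probe had means of 85.6 ± 7.27 in the Cg and 69.0 ± 5.67 in the BLA, against 28.1 in the CeA, 21.4 in the PVN and 18.8 in the DG, and its other tested probes gave 22.1 and 21.8, and 23.6 and 23.2, in the Cg and BLA. The Cg was also high in a Kcnh7 probe (29.4, at least 2.46-fold), a probe of Kcnj9 (Kir3.3, 28.5, at least 2.31-fold) and Kcna2 (Kv1.2, 48.4, log2 1.18), and the BLA in Kcnd2 (Kv4.2, 82.4, log2 0.75). Both tested Kcnk2 (TREK1) probes were lowest in the BLA (40.2 and 8.80). The CeA was low in both Kcnc4 (Kv3.4) probes (125 ± 30.4 and 9.73, log2 -1.13 and at least 1.91-fold lower) and in Kcnip3 (52.9, -0.84) and high in Kcnk13 (37.2, log2 0.63). Kcnab2, another beta subunit, had its highest mean in the DG (511), followed by the Cg (439), the BLA (406), the CeA (368) and the PVN (229). The brighter Kcna6 probes were highest in the BLA (414 and 269) and lowest in the DG (152 and 102).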

How the data were processed

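Illumina MouseWG-6 arrays were summarised by the authors in BeadStudio and normalised with QSpline; the deposited values used here are normalised linear intensity values, and versions are not given in the sources used here. Of 78 labelled arrays, 3 DG arrays that the labels call inadequate carried no values, which left 75. A second table, before normalisation, held 156 per-sample columns whose names matched no label and was not used, and neither were its detection p-values.

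Intensities were log2-transformed and fitted with limma 3.58.1 in R 4.3.3: all lines of a region together, or the 15 groups jointly with a random block for the mouse (consensus correlation 0.0141). Same-mouse arrays of different regions correlated in their deviations from group means by 0.071 on average (114 pairs), arrays of other mice of the line by -0.0127 (628 pairs). P-values were Benjamini-Hochberg adjusted over all probes tested (22087 in the joint fit, threshold 0.05). The region, joint and separate-variance fits were tested on simulated data for HAB against LAB, and the joint fit also for the DG difference. Simulated arrays were independent and the joint fit was run on them without a mouse correlation, so the random block was not tested. Other settings and line comparisons were not simulated. With unequal spread between regions the joint fit made too many calls there, of region dependence above all and also of averages, and a separate variance for each region made fewer false calls. A probe was left out where it did not exceed background as given above, and bounded folds count each array of the dimmer side below background at it. The number of arrays limits the precision.

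Gene symbols came from the platform annotation, updated through Entrez numbers to current names. Named were Kcnj16 and Kcnh1, up to 25 Kcn probes with a line call, the 3 Kcn probes furthest above and below in each region, and the 5 brightest, with other tested probes of these genes. The members, gene lists and tests were chosen with earlier results of these data known. Alternatives changed the transform, the normalisation, the filter, array weights, the block, the symbols and single mice. Mouse means and separate variances were added after seeing the data.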

Additional observations from a re-analysis of the deposited data

Results flagged for a closer look

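Of 204 groups of 4 to 10 arrays at the named line-difference probes, 13 had 1 array whose gap to the next exceeded Dixon's 95% critical value, and chance gives about 1 in 20. Kcnj16 was 51.5 in BLA NAB mouse 2 (others 63.8 to 70.2). Kcnh1 was 96.8 in Cg HAB mouse 17 (others 15.4 to 26.8), and Kcnh2 was 42.3 in PVN LAB mouse 6 (others 17.8 to 21.2). The Kcnh3 probe was 7.30 in PVN HAB mouse 5 and 5.02 in PVN LAB mouse 14, both below background. Kcnu1 was 35.9 in Cg LAB mouse 7, Kcnj8 13.3 in CeA LAB mouse 21, and Kcnk3 23.3 in Cg NAB mouse 8. Kcnd3 was 8.79 in Cg NAB mouse 2, and a Kcna6 probe 9.21 in Cg NAB mouse 13, each the lowest of its group. Kcnq1 was lowest in PVN LAB mouse 14 (10.9), and a Kcnc1 probe was lowest in BLA HAB mouse 17 (3.98) and highest in BLA NAB mouse 2 (9.10). None of these arrays was left out of the report's values.

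The line difference of Kcnj16 changed with the region, by a test of the difference itself in limma, both for HAB against LAB (adjusted p = 7.08e-10) and for NAB against LAB (adjusted p = 3.13e-10). The BLA had the widest and the PVN the narrowest gap on the log2 scale.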

How the results depend on the processing

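Region and hybridisation batch cannot be told apart, and the slides within a region were not examined. DG lines had 3 arrays each, and probes near background give compressed differences. Most regional counts rest on 1 to 5 probes, so single mice move them. Without 1 mouse at a time, Kcn probes called between HAB and LAB were 2 to 3 (Cg), 2 to 4 (CeA, 4 without LAB 6), 1 to 3 (PVN, 1 without LAB 3, 7, 10 or 14), 2 to 4 (BLA) and 0 (DG), between HAB and NAB 0 to 2 (CeA, 2 without HAB 17), 0 to 1 (PVN, 1 without HAB 11), 2 to 3 (BLA) and between NAB and LAB 1 to 3 (Cg, 1 without LAB 3, 6 or 7 or NAB 12 or 15), 2 to 4 (CeA), 1 to 3 (PVN, 1 without LAB 3 or 7 or NAB 18) and 5 to 8 (BLA, 8 without NAB 2). On average over regions they were 5 to 10 (5 without HAB 1), 4 to 8 and 6 to 11 (6 without LAB 6 or 7 or NAB 12), and region dependence was called at 1 to 2 probes for HAB against LAB (2 without HAB 20) and for NAB against LAB (2 without NAB 2). The direction of every named line difference was kept in all of these fits, and Kcnj16 kept each call.

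With 16 added before the log, 1 Kcn probe was called in the PVN for HAB against NAB and 2 for region dependence of HAB against LAB. Quantile normalisation gave 5 and 4 in the BLA for HAB against LAB and HAB against NAB. Without a filter, 1 was called for NAB against LAB in each of the Cg, CeA and PVN, 1 for HAB against NAB in the BLA, and 6 on average for NAB against LAB. The stricter filter gave 1 in the PVN for HAB against NAB. For these settings the shares of all probes are not given, so the counts are not read as results about the Kcn probes. Array weights gave 2 in the CeA for HAB against NAB (2.25% of all probes). In the PVN they gave 4 and 4 for HAB and NAB against LAB (3.64% and 3.07%). They gave 14 in the BLA for NAB against LAB (17.2%), and in the DG 1 and 2 for HAB and LAB against NAB (2.19% and 3.24%). With these weights region dependence was called at 2 and 3 probes for HAB and NAB against LAB (0.702% and 2.29%). The cause of these changes was not tested.

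Without a replicate block the average counts were 9, 6 and 10 and region dependence was called at 1, 0 and 1 probes, as with the mouse as a random block. With the mouse as a fixed replicate block region dependence was again called at 1, 0 and 1. A separate variance for each region gave 9, 6 and 9 on average (7.32%, 6.35% and 10.9% of all probes). For region dependence it gave 1, 0 and 1 (0.204%, 0.195% and 0.281%). No named result was reversed by any of these settings, but named line calls were lost: 9 with quantile normalisation (Kcnk1 in the PVN, Kcnk3 in the BLA and Kcna6 in the CeA for NAB against LAB, and averages of Kcnh7, Kcnip4, Kcnn1, Kcnu1 and, in both comparisons, Kcnq1), 16 without a filter (among them Kcnk1 in 4 comparisons and Kcnh3 and Kcnh6 within a region), 5 with array weights and 1 each with 16 added (Kcnc1), median centring (Kcnk1 in the Cg) and a separate variance (Kcnip4). Quantile normalisation moved the median DG difference of all probes from 0.055 to -0.045 and gave higher and lower averages of 8 and 1 between HAB and LAB, 2 and 3 between HAB and NAB, and 5 and 2 between NAB and LAB. Without the PVN array of HAB mouse 9, the PVN counts stayed at 2 and 2, and Kcnj16 differed by 0.67 there (limma adjusted p = 0.00115).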
